A study of Rattus norvegicus with 8 samples.

Results

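The unfolded protein response and Derl3 were followed in purified rat retinal ganglion cells (RGCs), the projection neurons that carry vision from the eye to the brain. The 10 members were 5 genes of the PERK arm (Eif2ak3, Atf4, Ddit3, Trib3 and Ppp1r15a), 2 of the IRE1 arm (Ern1 and Xbp1), Atf6, and the downstream genes Herpud1 and Derl3. They were found by gene symbol in the probe annotation table. Of the 10 members 8 had a spot, and together they held 10 of the 45220 spots of the array. Ern1 and Xbp1 were not named in that table, so the IRE1 arm had 0 of 2 members measured. The set was selected on the COH against control difference of Derl3, which had stood out in these same arrays. That difference is therefore given as a description with no test, and so are those of the other members.

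RGCs exposed to chronic ocular hypertension (COH), in which eye pressure is kept high to model glaucoma, gave 4 samples. Control RGCs from the normotensive fellow eyes of the same animals gave the other 4. Each numbered sample is a pool of animals, so a COH and a control sample of the same number form a pair. Each RNA was labelled with Cy5 and hybridised to its own array against a common rat reference RNA labelled with Cy3, so every level is taken as a log2 ratio of RGC over reference RNA. The sources used here do not state the log base of the deposited values. It was inferred from the values, which do not settle it, so every fold below rests on log2. The direction of the values is not stated either. It was taken from the dyes and from the design text, which speaks of RGC over reference, and if the deposited ratios ran the other way every higher and lower below would turn round. The labels and the design text name no strain, age, duration of the raised pressure or number of animals per pool.

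The unfolded protein response is the reaction of a cell to misfolded protein in the endoplasmic reticulum (ER). It is started by sensors in the ER membrane: PERK (encoded by Eif2ak3) slows translation and favours translation of ATF4, IRE1 (Ern1) splices the Xbp1 transcript, and ATF6 is cut in the Golgi to release a transcription factor. These factors switch on chaperones and the machinery of ER-associated degradation (ERAD), which draws misfolded proteins back into the cytosol for the proteasome. In the optic nerve crush and ocular hypertension models of the mouse, the PERK arm and its product CHOP (Ddit3) are known for their link to RGC loss. Several steps of the response act on protein or on splicing, which a ratio of transcript levels does not show.

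ATF6 and XBP1 act through a short promoter element, the ER stress response element (ERSE, CCAAT and CCACG with 9 bases between them), and a variant, ERSE-II (ATTGG and CCACG with 1 base between them). ATF4 acts with C/EBP partners through the C/EBP-ATF response element (CARE, TGATGNAAN). Promoter windows from 250 bases before to 50 bases after the gene start were present for 8 of the 10 members (RefSeq, build GRCr8), and none was present for Ern1 and Atf6. Both strands were searched for these letters. The stretches that held a match are shown because they hold the letters of elements known from this response. They read along the strand of the gene, all lie before its start, and the match is in capitals.

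Derl3: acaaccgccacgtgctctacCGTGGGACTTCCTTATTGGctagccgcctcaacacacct

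Xbp1: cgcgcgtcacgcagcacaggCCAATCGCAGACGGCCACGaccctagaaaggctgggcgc

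Herpud1: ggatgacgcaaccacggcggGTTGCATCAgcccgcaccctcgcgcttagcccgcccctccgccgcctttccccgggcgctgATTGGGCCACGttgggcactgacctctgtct

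Trib3: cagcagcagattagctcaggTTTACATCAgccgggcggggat

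Derl3 held an ERSE on the opposite strand, 154 to 136 bases before its start (stretch chr20:12766581-12766639, minus strand). Xbp1 held an ERSE on its own strand, 65 to 47 bases before its start (chr14:84604538-84604596, plus strand). An ERSE was present in 22 of 33469 windows (0.0657%). Herpud1 held an ERSE-II 124 to 114 bases before its start and a CARE on the opposite strand 185 to 177 bases before it (chr19:10614801-10614912, minus strand). ERSE-II was present in 17 windows (0.0508%). Trib3, a pseudokinase that is a target of ATF4, held a CARE on the opposite strand 22 to 14 bases before its start (chr3:161275534-161275575, minus strand), as did 3.97% of all windows. The first letters of the ERSE match in Derl3 and the last in Xbp1 are its CCACG site, which alone was present in 31.6% of windows. The XBP1 element core TGACGTGG was in none of the 8 member windows and in 0.595% of all windows. A match describes the letters of the window and does not show binding.

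The arrays held between 32101 and 42076 values each, and 22856 spots had a value on all 8 arrays. Averaged by gene, these gave 9792 named genes and 8803 unnamed probes. Correlations between arrays over all spots ran from 0.56 to 0.77, and the COH 4 array had the lowest mean correlation with the others over spots with distinct values (0.68, against 0.77 to 0.84). The median standard error of a difference was 0.42 on the log2 scale. No item had an adjusted p under 0.05 by limma with the pair as a block (0 of 18595, 0.00%, smallest adjusted p 0.915), while 880 (4.73%) had an unadjusted p under 0.05. All 880 also differed by at least 1.5-fold and so met the design-text rule, 477 higher (2.57%) and 403 lower (2.17%) in COH cells. Nothing below passed the adjusted threshold. Over 14 measured RGC markers of 20, the median log2 ratio was 0.00 in COH and 0.04 in control cells. Of the 14 markers, 5 lay above the reference on all 4 COH arrays and 2 on all 4 control arrays. Among all 9792 named genes 2098 lay above it on all 4 COH arrays and 2183 on all 4 control arrays. Nothing is read from the marker counts. The differences of the 14 had a median of -0.0025, with 7 higher and 7 lower by mean, from -1.28 for the surface marker Thy1 (95% interval -2.39 to -0.17, lower in 3 of 4 pairs and the 1 marker of the 14 to meet the design-text rule) to 0.55 for Stmn2, a tubulin-binding protein of neurons (higher in 3 of 4 pairs). A mean over a pool does not tell fewer cells of a type from less RNA per cell.

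Derl3 encodes Derlin-3, an ER membrane protein of ERAD that is induced by ER stress and is abundant in secretory cells. Its log2 ratio was 1.18, -1.03, 0.19 and -1.29 on the COH arrays 1 to 4, and 3.66, 1.03, 0.92 and 1.15 on the control arrays 1 to 4. Derl3 was lower in COH cells in 4 of 4 pairs, but the groups overlapped, since COH 1 lay above controls 2, 3 and 4. It averaged -0.24 ± 1.14 in COH cells and 1.69 ± 1.32 in control cells (SD, n = 4 each). The difference was -1.92 on the log2 scale (95% interval -2.91 to -0.94), or 3.79-fold lower in COH cells. The differences within pairs were -2.48, -2.06, -0.72 and -2.43. Among the 9792 named genes it was the 22nd lowest difference, and 483 genes (4.93%) were lower in 4 of 4 pairs. These values chose the gene and support nothing further.

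The Derl3 value rested on 1 spot, and on 6 of 8 arrays that spot had exactly the value of at least 2 other spots. A value held by at least 3 spots of an array is called repeated here, and one held by fewer is called distinct. Why ratios repeat was not tested, and intensities were not used. On COH arrays 1 to 4 the value of Derl3 was held by 25, 62, 110 and 19 spots. On control arrays 1 to 4 it was held by 1, 32, 2 and 13 spots. All 4 COH values were thus repeated ones, while control 1, the highest of the 8, and control 3 were distinct. The part of repeated values in the difference was not tested. Control 1 had the fewest values of any array (32101) and the largest share of repeated ones (59.5%, against 50.9% to 57.8% on the other arrays). Without pair 1 the difference of Derl3 was -1.74, and without pair 4, which holds the COH 4 array, it was -1.75.

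**Figure D1:**
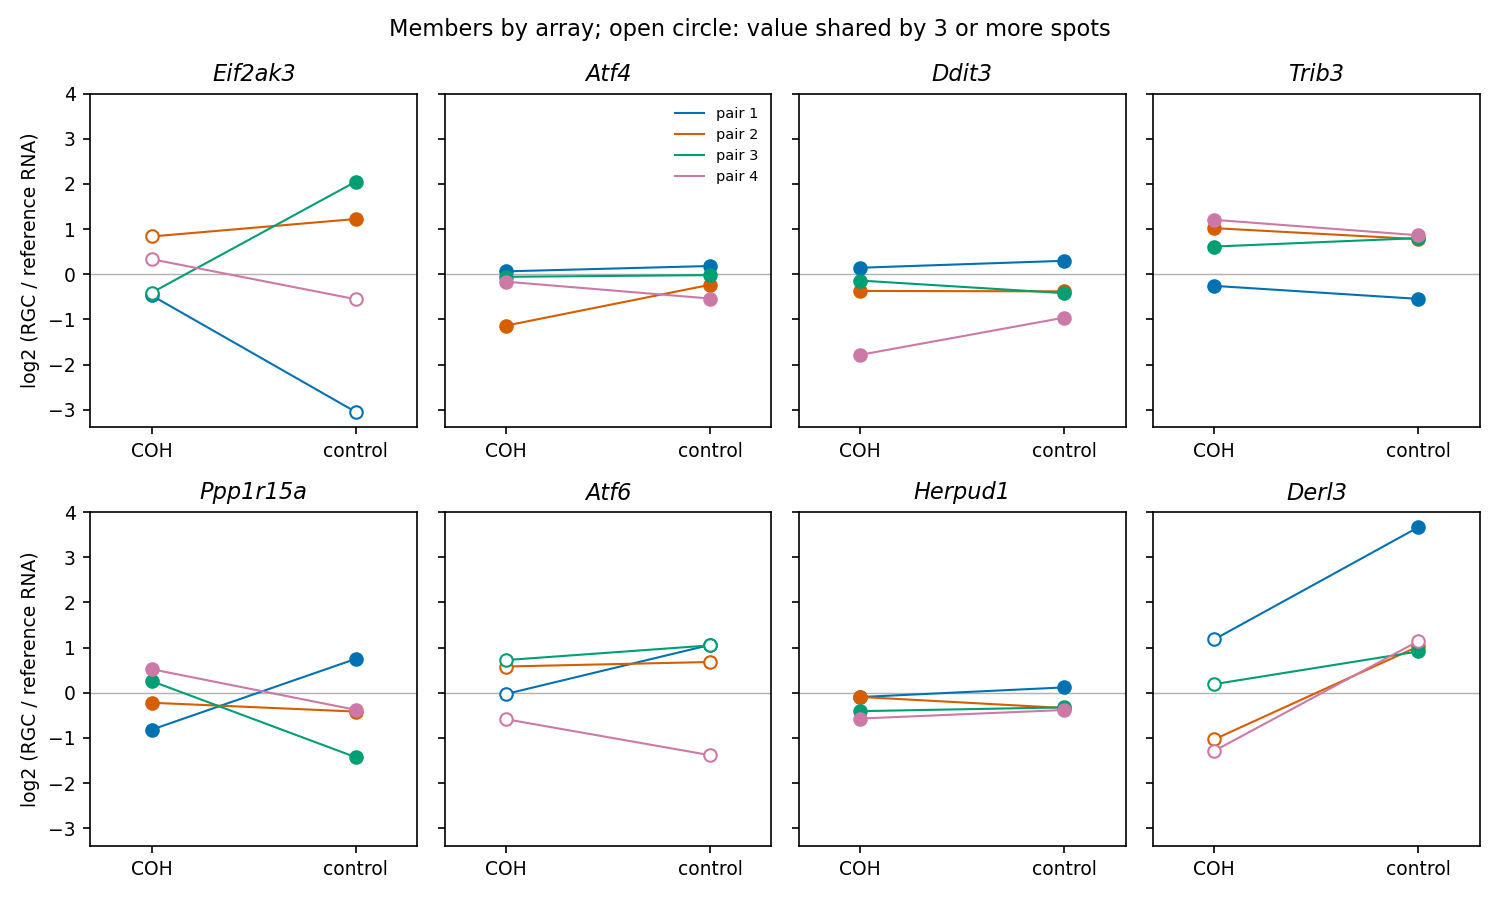
Log2 ratio of RGC over reference RNA (y axis) of the 8 measured members, with COH on the left and control on the right of each panel; a line joins the samples of a pair, and an open circle marks a value held by 3 or more spots of that array. Derl3 slopes up towards control in 4 of 4 pairs, while the lines of the PERK genes cross or lie flat.

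Herpud1, an ER membrane protein that organises the ERAD ligase complex and carries the ERSE-II shown above, had 2 spots with values on all 8 arrays, while the other members had 1. Its log2 ratio, the mean of both, was -0.09, -0.09, -0.41 and -0.57 on COH arrays 1 to 4, and 0.12, -0.34, -0.32 and -0.38 on control arrays 1 to 4. The groups overlapped and the difference was -0.06 (95% interval -0.82 to 0.70), with 3 of 4 pairs lower. The 2 spots differed by -0.16 and 0.04 between COH and control, and both had distinct values on all 8 arrays. Another Herpud1 spot lacked a value on COH 3 and was left out. Its 3 pairs averaged 0.48, with repeated values on 5 of its 7 arrays. With spots of at least 3 complete pairs admitted, the difference of Herpud1 was 0.07. The mean of the downstream ERAD genes Herpud1 and Derl3 differed by -0.99 ± 0.44 (SD of 4 pairs), made up of -0.06 for Herpud1 and -1.92 for Derl3.

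Atf6 encodes the sensor that becomes a transcription factor when cut. Its log2 ratio was -0.03, 0.58, 0.72 and -0.58 on COH arrays 1 to 4, and 1.06, 0.68, 1.05 and -1.38 on control arrays 1 to 4. It was lower in COH cells in pairs 1, 2 and 3 and higher in pair 4, and the groups overlapped. The difference was -0.18 (95% interval -1.14 to 0.78), and without pair 1 it was 0.12. Its single spot had a repeated value on 8 of 8 arrays. The cleavage that activates ATF6 is not measured by its transcript.

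The PERK arm showed no common direction. The mean over its 5 genes differed by 0.21, -0.17, -0.14 and 0.34 in pairs 1 to 4, or 0.06 ± 0.25 (SD of 4 pairs). Atf6, the only measured gene of its arm, differed by -1.09, -0.10, -0.32 and 0.80 in the same pairs, or -0.18 ± 0.78. The arms thus overlapped in their pairs, and members of an arm are not replicates of it. None of the 5 PERK genes and not Atf6 differed the same way in 4 of 4 pairs, against 8.39% of named genes higher and 4.93% lower in 4 of 4 pairs.

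Eif2ak3 encodes the kinase PERK itself. Among the members it had the widest spread of differences within pairs (SD 2.12) and of control values (SD 2.26), while its COH values (SD 0.63) spread less than those of Derl3 (SD 1.14). Its log2 ratio was -0.47, 0.84, -0.41 and 0.33 on COH arrays 1 to 4, and -3.05, 1.22, 2.05 and -0.55 on control arrays 1 to 4. The control values thus spanned the COH values on both sides. The difference was 0.15 (95% interval -1.67 to 1.98). It was -0.65 without pair 1, -0.09 without pair 4 and 1.03 without pair 3, so its sign hung on single pairs. The spot had a repeated value on 6 of 8 arrays, all 4 COH arrays among them.

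Atf4, the transcription factor that PERK signalling favours through translation, was measured with distinct values on all 8 arrays. Its log2 ratio was 0.06, -1.14, -0.06 and -0.16 on COH arrays 1 to 4, and 0.18, -0.23, -0.02 and -0.54 on control arrays 1 to 4. COH 2 was the lowest of the 8, and the other 7 ran from -0.54 to 0.18. The difference was -0.17 (95% interval -1.02 to 0.68), and 0.07 without pair 2.

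Ddit3, which encodes the pro-apoptotic factor CHOP, also had distinct values throughout. Its log2 ratio was 0.14, -0.37, -0.14 and -1.78 on COH arrays 1 to 4, and 0.30, -0.38, -0.42 and -0.96 on control arrays 1 to 4. Pair 4 had the lowest value of each group, and the difference of -0.17 (95% interval -0.999 to 0.65) was 0.04 without that pair.

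Trib3, induced by ATF4 and CHOP and carrying the CARE shown above, was at -0.26, 1.02, 0.61 and 1.21 on COH arrays 1 to 4, and at -0.54, 0.78, 0.80 and 0.86 on control arrays 1 to 4. Pair 1 was the lowest in each group. The difference was 0.17 (95% interval -0.59 to 0.94), with 3 of 4 pairs higher. It stayed above 0 under the 14 alternative settings tried, from 0.04 to 0.29.

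Ppp1r15a encodes GADD34, the phosphatase subunit that restores translation after PERK signalling. Its log2 ratio was -0.82, -0.22, 0.26 and 0.52 on COH arrays 1 to 4, and 0.75, -0.42, -1.43 and -0.38 on control arrays 1 to 4. The difference was -1.57 in pair 1 and 1.69 in pair 3, although its values were distinct on all 8 arrays. The difference of 0.30 (95% interval -1.01 to 1.62) was 0.93 without pair 1 and -0.16 without pair 3.

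**Figure D2:**
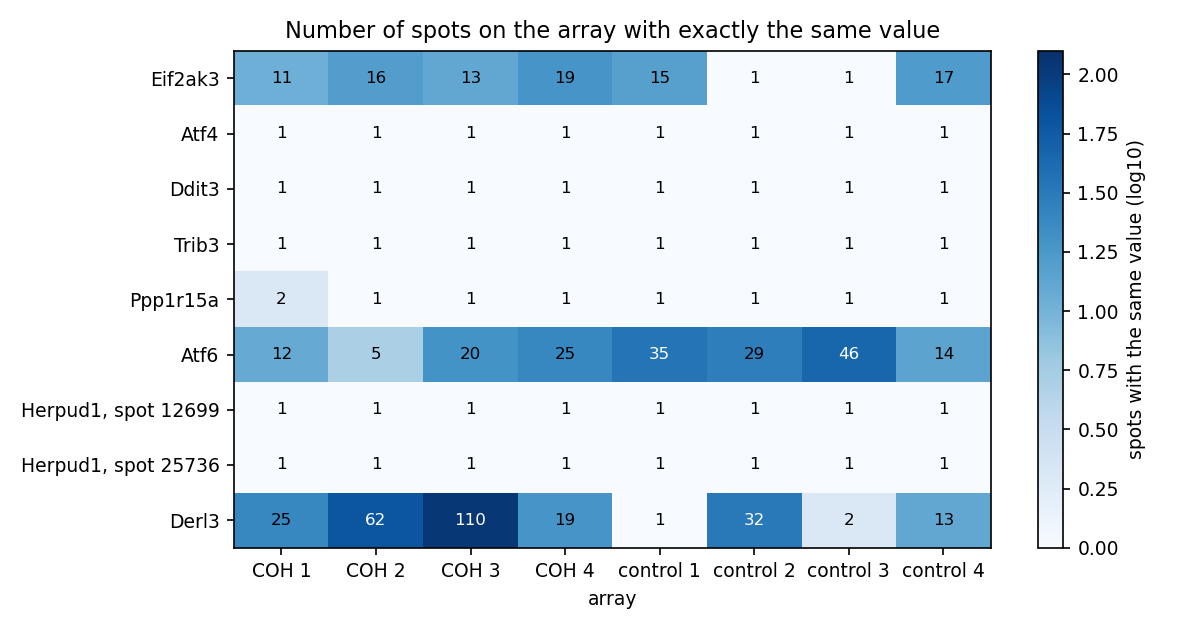
Number of spots of an array (columns) that carried exactly the same value as the spot of each member (rows), counted with the spot itself; darker blue is more, on a log10 colour scale. Atf4, Ddit3, Trib3 and the 2 averaged Herpud1 spots stand at 1 throughout, while Derl3 reaches 110 on COH 3 and Atf6 46 on control 3.

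Members with repeated values were Eif2ak3, Atf6 and Derl3, that is 3 of the 8 measured, each on 6 or more arrays. Among all named genes 48.2% had such a value on at least 1 array and 23.0% on 6 or more arrays. The 5 members with distinct values on all 8 arrays had differences between -0.17 and 0.30.

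The genes whose levels followed Derl3 most closely over the 8 arrays were Gatd3a (Pearson r = 0.95), Rcn1 (0.95), Atp1b3 (0.93), Rnf151 (0.92) and Bok (0.92). All 5 were lower in COH cells in 4 of 4 pairs, against 4.93% of named genes, with differences from -0.19 (Gatd3a) to -1.13 (Rnf151). Since they were picked for following Derl3 on the same arrays, their direction was largely fixed by the choice and nothing is read from it. Rcn1 encodes a calcium-binding protein of the ER lumen and Bok a BCL2-family member found at the ER. Rcn1 was at 0.34, -0.49, -0.12 and -0.86 on COH arrays 1 to 4, and at 0.83, 0.28, 0.40 and 0.18 on control arrays 1 to 4, with distinct values on all 8 arrays. These are the highest correlations among all named genes, over 8 arrays that share the reference, and control 1 was the highest array for each of the 5. Among the members, r with Derl3 ran from -0.82 (Trib3) to 0.65 (Ddit3).

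The wider response was looked at in 6 gene lists that hold 180 genes other than the members. Of the 139 measured, 0 passed the adjusted threshold by limma, and 6 met the design-text rule (4 higher and 2 lower, 4.32%). Among all named genes 4.22% met that rule (2.24% higher and 1.98% lower), so the share in the lists was near the background. The median difference was 0.12 over the 139 genes and 0.08 over all named genes. Pair 3 had a mean difference of 0.38 over the 139 genes and 0.36 over all named genes, so the shift of that pair was of like size in both. For pair 4 these means were 0.16 and 0.02, for pair 1 -0.09 and -0.07, and for pair 2 -0.07 and -0.05. Without pair 2 or without pair 3, 0 of the list genes were lower by the rule, with 4 and 3 higher. Without pair 1 there were 3 lower and without pair 4 there was 1, with 4 higher each time.

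**Figure D3:**
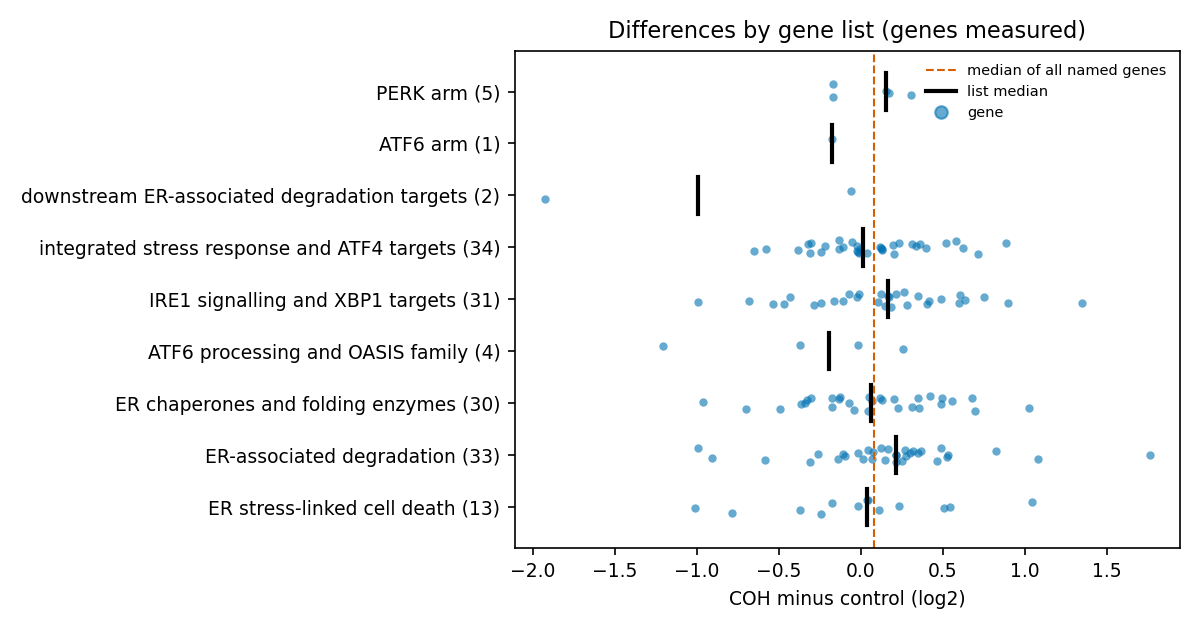
COH minus control difference on the log2 scale (x axis) of each measured gene, by list (rows, number of genes measured in brackets); black bars are list medians and the dashed line is the median of all named genes (0.08). Derl3 lies alone at the far left, and the list medians of the 6 wider lists lie between -0.19 and 0.21.

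Among ER chaperones and folding enzymes, 30 of 40 genes were measured, of which 1 met the rule higher and 0 lower, with a median difference of 0.06. Hspa5 encodes BiP, the ER chaperone that holds the sensors inactive and whose promoter also holds an ERSE. It was at -1.29, -1.08, -0.70 and -0.94 on COH arrays 1 to 4, and at -1.07, -0.88, -0.09 and -0.60 on control arrays 1 to 4. BiP was thus lower in COH cells in 4 of 4 pairs, with a difference of -0.34 (95% interval -1.10 to 0.41, unadjusted p 0.318 and adjusted p 0.933 by limma). The difference was 0.20 for Hsp90b1 (the chaperone GRP94) and -0.14 for Sdf2l1, a partner of BiP. Creld2, an ER stress-induced protein whose promoter also holds an ERSE, met the rule, with a difference of 1.02 (95% interval 0.26 to 1.79) and 4 of 4 pairs higher. It averaged -1.46 ± 0.54 in COH cells and -2.48 ± 0.43 in control cells (SD, n = 4 each). Its spot had repeated values on 5 arrays.

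Of 13 measured genes with an ERSE in their promoter window, Derl3 included, 5 had a lower mean in COH cells, and the median difference was 0.11, against 0.08 over the 8121 measured genes with a window. Derl3 had the lowest difference of the 13 and Creld2 the highest. Calr and Canx, the lectin chaperones calreticulin and calnexin, differed by -0.49 and 0.50, each with a 95% interval that included 0. Of 10 measured genes with an ERSE-II, 8 had a lower mean in COH cells, with a median of -0.27, while 4203 of all 9792 named genes had a lower mean. Both sets were compared after values were seen, and nothing is read from these counts. Herpud1 (-0.06) and the ER chaperone gene Hyou1 (0.13) were among them, as was Rnf151 (-1.13) from the genes that followed Derl3.

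In the list of IRE1 signalling and XBP1 targets 31 of 39 genes were measured, which is the nearest these arrays come to the unmeasured IRE1 arm. Of these, 2 met the rule higher and 1 lower, and the median difference was 0.17. Kdelr3, a receptor that returns ER proteins from the Golgi, was at -1.94, -1.61, -1.49 and -1.99 on COH arrays 1 to 4, and at -2.80, -2.95, -3.68 and -2.98 on control arrays 1 to 4. Every COH array lay above every control array, as for 1.55% of named genes, and the difference was 1.35 (95% interval 0.47 to 2.22, unadjusted p 0.00851 and adjusted p 0.915 by limma). Srprb, a subunit of the receptor that docks nascent secretory proteins at the ER, was likewise higher on every COH array, with a difference of 0.90 (95% interval 0.10 to 1.70). Dnajb9, a BiP co-chaperone and classic XBP1 target, differed by -0.53 (95% interval -1.45 to 0.38).

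In the ERAD list 33 of 42 genes were measured, with 1 higher and 1 lower by the rule and a median of 0.21. Ubxn8, an ER membrane adaptor of the p97 ATPase, was at -0.73, -0.12, 0.71 and -0.68 on COH arrays 1 to 4, and at -2.44, -1.02, -2.63 and -1.78 on control arrays 1 to 4. The groups did not overlap and the difference was 1.76 (95% interval 0.62 to 2.90, unadjusted p 0.00843 and adjusted p 0.915 by limma), with repeated values on 5 arrays. Edem2, which trims mannose from misfolded glycoproteins, was lower on every COH array, as for 1.01% of named genes, with a difference of -0.995 (95% interval -1.98 to -0.0090). It had distinct values throughout and is in the XBP1 list too. Derl1, the paralogue of Derl3, was at -1.08, -1.25, -0.84 and -0.69 on COH arrays 1 to 4, and at -1.03, -1.46, -1.32 and -1.32 on control arrays 1 to 4. Derl1 was higher in 3 of 4 pairs, with a difference of 0.32 (95% interval -0.46 to 1.09). Derl2 was not named in the probe table. The ligase gene Syvn1 (HRD1) differed by -0.10 (-0.86 to 0.66), its partner Sel1l by 0.25 (-0.78 to 1.29), and Edem1 by 0.22 (-0.61 to 1.04). Sel1l had repeated values on 8 of 8 arrays.

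In the list of the integrated stress response and ATF4 targets 34 of 38 genes were measured, and none met the rule in either direction. The median difference was 0.02, with 17 genes higher and 17 lower by mean. Asns (asparagine synthetase) differed by -0.06, Chac1 (a glutathione-degrading enzyme) by -0.32 and Atf3 (a stress-induced transcription factor) by 0.13. The smallest p belonged to Fgf21, a stress-induced hormone, with a difference of 0.89 (95% interval -0.14 to 1.91) and repeated values on 7 of 8 arrays. Of the 4 measured genes among 8 for ATF6 processing and the related OASIS factors, 0 met the rule. Creb3l1 differed by -1.20 (-2.82 to 0.42), with 0.78, -2.47, -0.10 and -3.02 in pairs 1 to 4. In the cell death list 13 of 21 genes were measured, with 0 higher and 1 lower. That gene was Bok, at -1.02, -2.03, -2.25 and -2.74 on COH arrays 1 to 4, and at -0.37, -1.23, -1.37 and -1.03 on control arrays 1 to 4. Its difference was -1.01 (95% interval -1.84 to -0.18), with repeated values on 8 of 8 arrays. Casp12, the ER-linked caspase of rodents, lacked a value on 1 array and was not tested.

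**Figure D4:**
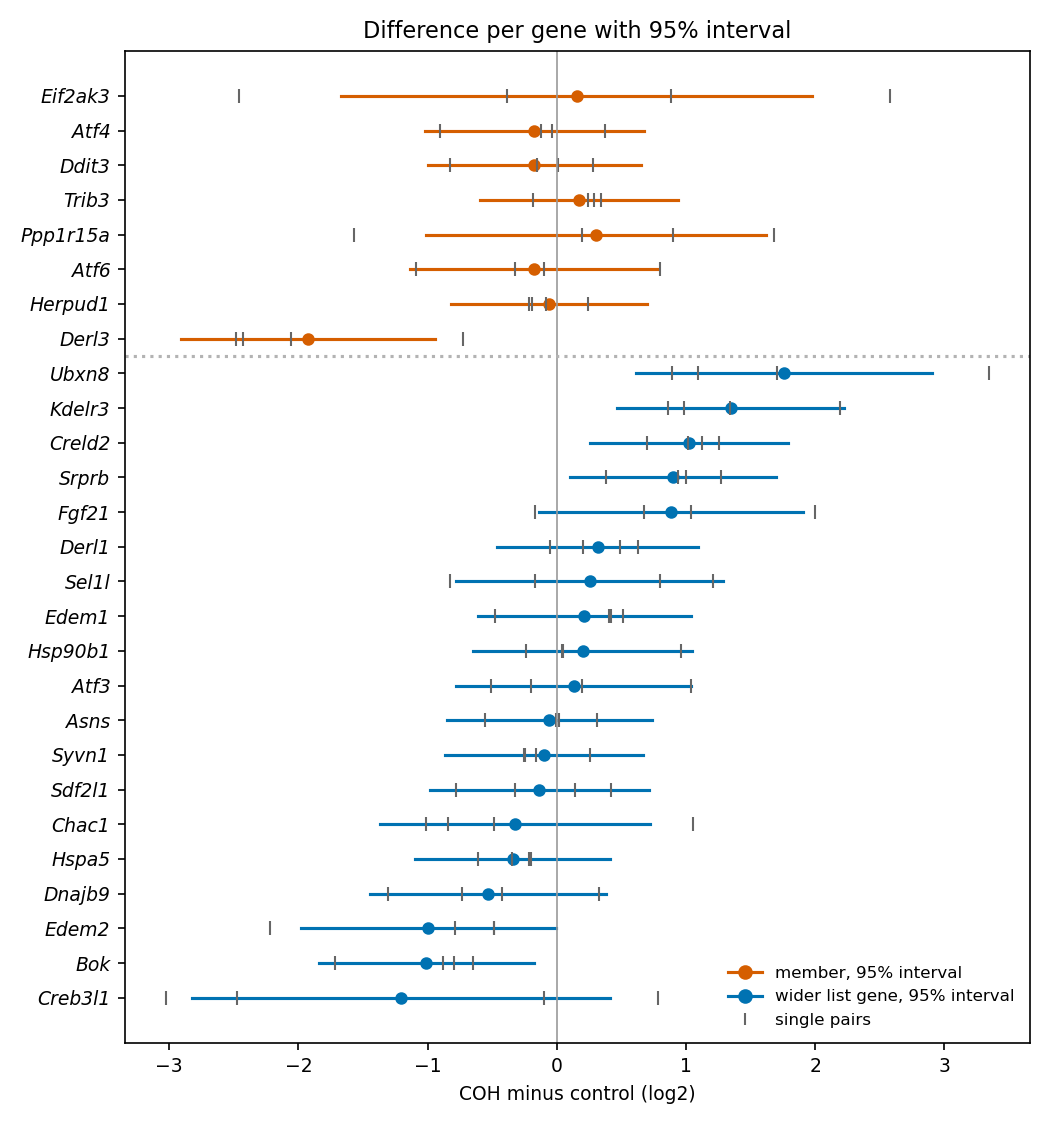
COH minus control difference on the log2 scale (x axis) for the 8 measured members (orange, top) and the named genes of the wider lists (blue, sorted), with 95% intervals from the fit as lines, their centres as points and the 4 pairs as grey ticks. The points of the members run from -1.92 for Derl3, which was chosen for its difference, to 0.30 for Ppp1r15a.

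Markers of other cells were set beside these values. The astrocyte list, singled out after values were seen, had a lower mean over 5 of 6 genes in COH cells in 4 of 4 pairs. Its difference was -0.42 ± 0.19 (SD of 4 pairs), and its likeness to Derl3 was not measured. The mean log2 ratio of the list ran from -0.59 to -0.15 on the COH arrays and from -0.09 to 0.15 on the control arrays, so the groups did not overlap. Within it Slc1a2 (-1.24) and Aldh1l1 (-0.92) met the rule as lower and S100b differed by -0.28, while Gja1 differed by 0.18 and Gfap by 0.15. The mean of the list thus leans on Slc1a2, the largest of these differences. Whether each listed gene is particular to astrocytes in the rat retina was not tested. Slc1a2, S100b and Gfap had repeated values on 7 of 8 arrays each, and Aldh1l1 and Gja1 had distinct values throughout. The microglia and macrophage list had 12 of 15 genes measured, with a mean difference of -0.09 ± 0.40 (SD of 4 pairs) and 6 genes higher and 6 lower by mean. Its mean log2 ratio ran from -0.15 to 0.41 on the COH arrays and from 0.05 to 0.46 on the control arrays. The log2 ratio of Cx3cr1, a chemokine receptor that marks microglia, was 1.12, 1.13, 1.45 and -0.63 on COH arrays 1 to 4, and 3.04, 2.64, 2.80 and 2.79 on control arrays 1 to 4. Every COH array lay below every control array, with a difference of -2.05 (standard error 0.44, unadjusted p 0.00249 and adjusted p 0.915 by limma) and repeated values on 4 arrays. Trem2, another microglial receptor, was also lower on every COH array, with a difference of -0.55 (95% interval -1.32 to 0.23), while Tyrobp, its adaptor, was higher in 4 of 4 pairs, with a difference of 0.37 (95% interval -0.40 to 1.15). Tyrobp and Trem2 had distinct values throughout. The mean differences of the other lists were 0.34 ± 0.75 for photoreceptors (6 of 14 genes measured), -0.04 ± 0.08 for bipolar cells (6 of 10), 0.22 ± 0.25 for amacrine cells (6 of 9), 0.01 ± 0.34 for Muller glia (11 of 14), -0.03 ± 0.27 for endothelium (5 of 9) and 0.56 ± 1.03 for retinal pigment epithelium (3 of 9), each with the SD of 4 pairs. In each of these 6 lists the pairs went both ways, and 0 of their genes met the design-text rule. The median log2 ratio in COH and control cells was 1.18 and 0.70 for photoreceptors and 0.91 and 0.95 for bipolar cells. It was 0.87 and 0.68 for endothelium, 0.63 and -0.31 for retinal pigment epithelium and 0.00 and -0.06 for amacrine cells. For Muller glia it was -0.56 and -0.42, for astrocytes 0.29 and 0.65, and for microglia and macrophages 0.36 and 0.47. The RGC median (0.00 in COH and 0.04 in control cells) lay below those of photoreceptors, bipolar cells and endothelium in both groups. It also lay below those of astrocytes and of microglia and macrophages in both groups. Against retinal pigment epithelium it was lower in COH cells and higher in control cells. Purity was not tested. Derlin-3 is known from secretory cells such as plasma cells. The plasma and B cell list had 4 of 11 genes measured, with a mean difference of -0.09 ± 0.41 (SD of 4 pairs) and a median log2 ratio of -1.03 in COH and -0.99 in control cells. The part of these cell types in the Derl3 difference was not tested.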

How the data were processed

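Amplified RNA of purified rat RGCs carried Cy5 and amplified reference RNA Cy3, per the labels' protocols. The authors deposited 1 value per spot, taken here as a log2 ratio of RGC over reference RNA, although the sources used here state neither base nor direction for the deposited values. Per the design text, Lowess normalisation was applied globally and locally and only spots meeting Agilent's quality checks were kept. No normalisation software is named. The base was inferred: the 3 commonest spacings between values that at least 20 spots of an array share, 2.000, 1.170 and 0.830, are ratios of 4.00, 2.25 and 1.78 if log2. The sign is assumed to be Cy5 over Cy3, as in the ratios the design text speaks of, and no dye was swapped. No column was left unused.

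Spots were named from the platform annotation and updated by gene identifier (25306 of 25353 spots with 1 symbol matched). Spots with values on all 8 arrays were averaged by gene, and limma (version 3.58.1, R 4.3.3; lmFit and eBayes, two-sided) was fitted to 18595 items with the pair as a block and Benjamini-Hochberg adjustment at 0.05. Intervals are 95% intervals of this fit. The fit was also run on simulated data with independent errors, no pair effect and no repeated values. That run cannot check how pairs or repeated values bear on the fit. The design text's rule is p under 0.05 and at least 1.5-fold. Its analysis of variance is not specified further, so limma's unadjusted p was used. Pairs rest on the design text, where both eyes of the same animals form a group. Deviations of same-numbered arrays from their group means correlated at 0.09, 0.02, 0.07 and 0.03. Those of differently numbered arrays correlated at -0.19 to 0.09. The same-numbered correlations were all above 0 but within that range, so they give at most a weak sign of the pairing. The number of arrays limits the precision. A value was called repeated when at least 3 spots of an array shared it.

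Members and gene lists were chosen with earlier results of these data known. Named were all members, 13 genes picked for their role, list genes meeting the design-text rule, the gene of smallest p in each list and the 5 most like Derl3. The comparisons by promoter element, and the examples Calr, Canx, Hyou1, Thy1, Stmn2, Cx3cr1, Trem2, Tyrobp and the astrocyte genes, were added after values were seen. The alternatives were another scaling, block, spot filter, averaging, weighting or test, and each pair left out.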

Additional observations from a re-analysis of the deposited data

Results flagged for a closer look

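Each group of 4 member values or within-pair differences was searched for a sample far from the other 3, by Dixon's test. Of 26 groups 4 had such a sample, where chance marks about 1 in 20. The groups are not independent, since within-pair differences hold the same values as the arrays, and the Derl3 values are those that chose the set, so nothing is read from the number marked. In 3 of the 4 it was control 1: Derl3 at 3.66 (the other controls 0.92 to 1.15), Trib3 at -0.54 (the others 0.78 to 0.86) and Herpud1 at 0.12 (the others -0.38 to -0.32). In the remaining one it was control 4, with Atf6 at -1.38 (the others 0.68 to 1.06). All are log2 ratios over reference RNA. Array 1 of the COH group was also the lowest COH array for Trib3 (-0.26) and the highest for Derl3 (1.18), though neither lay far enough from the other COH arrays to be marked.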

How the results depend on the processing

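Of the 14 alternative settings, several leave the difference of a gene with 1 spot as it is by construction. These are no block, the unmoderated test, spot medians, probe level and at least 3 complete pairs. Leaving out 1 of 4 pairs can move the difference little beside the spread of the pairs. Derl3 was lower in COH cells under 13 of 13, from -2.32 (without pair 3) to -1.74 (without pair 1). Since it was lower in 4 of 4 pairs, leaving 1 out could not turn its sign, and nothing is read from this tally. Derl3 could not be computed from distinct values alone, nor could Eif2ak3 and Atf6. The pairs are those of the design text. Without the replicate block the differences were the same and the 95% interval of Derl3 widened to -3.55 to -0.30. Trib3 kept its sign. Eif2ak3 ran from -0.65 to 1.03, Atf4 from -0.35 to 0.07, Ddit3 from -0.32 to 0.04, Ppp1r15a from -0.16 to 0.93, Atf6 from -0.50 to 0.12 and Herpud1 from -0.16 to 0.07. The mean of the PERK arm ran from -0.04 to 0.13 and that of Herpud1 with Derl3 from -1.19 to -0.87.

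No item passed the adjusted threshold under any of the 14. Items lower in COH cells by the design-text rule numbered 646 of 23339 with at least 3 complete pairs (544 higher), 73 of 8278 with distinct values (358 higher) and 221 of 18595 with an unmoderated test of the within-pair ratios (345 higher). The split was 560 higher and 330 lower with arrays centred on their median, 431 and 492 with quantile normalisation, 323 and 467 without pair 3, and 401 and 278 without pair 4. In the wider lists, 1 gene was lower without the block, with centred arrays and with at least 3 complete pairs (152 genes tested), 3 were lower with the unmoderated test, and with pairs left out 0 to 3 were lower and 3 to 4 higher. With distinct values 1 of 98 was higher and 2 were lower. At probe level 5 of 205 probes were higher and 3 lower. Signal over background was not used here, and 3 of 8 measured members rested on repeated values.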
